A study of Mus musculus with 10 samples.

Results

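Long intergenic noncoding RNAs (lincRNAs) are described here through the exon windows of every gene whose file name begins with guttman:linc and whose mean WT input level was at least 1 RPKM, a read level scaled for gene length and library size. This rule kept 113 of 166 such names, with 8222 of their 11734 windows. The files hold 1510223 windows of 30419 genes in all. The rule used the RPKM of the WT inputs and no enrichment value. Just inside it lay linc1327.3 at 1.02 RPKM, linc1427.3 at 1.02 RPKM and linc1535.3 at 1.03 RPKM, and just outside it lay linc1940.3 at 0.98 RPKM, linc1547.3 at 0.97 RPKM and linc1558.3 at 0.891 RPKM. The prefix guttman: is left out of the names below.

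The study mapped N6-methyladenosine (m6A) in J1 mouse embryonic stem (ES) cells by precipitating fragmented RNA with an m6A antibody (IP) and sequencing it beside unprecipitated RNA (input). The 10 libraries form 5 IP and input pairs. These are 2 pairs from Mettl3 knockout (KO) cells, 2 pairs from cells with wild-type Mettl3 (WT), and 1 further pair without a replicate number or a genotype in its labels, called the first pair. The labels give J-1 as the strain of each library, and the cells grew without feeder cells. The sources used here do not say how the knockout was made, from how many clones, or whether replicates were separate cultures. The p-values therefore describe the spread among these libraries, which may be technical. A growth protocol common to the 10 libraries also mentions differentiation by withdrawal of LIF (the cytokine that holds ES cells undifferentiated), and no label places a library in a differentiated state.

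m6A is written on RNA by a complex whose catalytic subunit is METTL3, and its sites concentrate in long exons and around stop codons of mRNAs. LincRNAs are spliced and polyadenylated like mRNAs but lack a long reading frame, so their m6A cannot be placed by a stop codon. In ES cells several lincRNAs are known for roles around pluripotency, nuclear organisation or imprinted domains, and others carry small nucleolar RNAs (snoRNAs) in their introns.

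Many members overlap genes known by another name. A window was counted as shared when its 10 coverage values equalled those of a window of another gene name and at least 5 of them were above 0. By this measure 81 of 113 members shared a window, 53 of them with a name that has a current RefSeq symbol (52 symbols, of which 48 are lncRNAs, 3 protein coding and 1 a pseudogene). A further 28 shared only with names lacking a current symbol, and 32 shared none. Windows of the same RNA laid at other positions are missed by this measure, so the counts can be too low. For example, linc1317.3 is counted as sharing none. Its whole-transcript log2 IP over input was 2.23 and 2.19 in KO, and 1.81 and 1.75 in WT. Neat1 had 2.23 and 2.19 in KO, and 1.82 and 1.75 in WT. Whether these names cover the same RNA was not tested. In total 1477 of 8222 member windows were shared, and such windows hold the same reads, so a member and its partner are not independent. For linc1582.3 the partner was Gm2694, whose RefSeq synonyms include linc1582. Only linc1458 and linc1747.3 shared windows with each other, 109 in number, and both also shared windows with Rian.

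The files give no coordinates or sequence for the lincRNA windows. For orientation, the RefSeq start regions (GRCm38.p6) of 4 partners that the results turn on are printed, 250 bases before and 50 bases after the annotated start, with the transcribed 50 bases in capitals.
Eprn, chr13:73347335-73347634, minus strand: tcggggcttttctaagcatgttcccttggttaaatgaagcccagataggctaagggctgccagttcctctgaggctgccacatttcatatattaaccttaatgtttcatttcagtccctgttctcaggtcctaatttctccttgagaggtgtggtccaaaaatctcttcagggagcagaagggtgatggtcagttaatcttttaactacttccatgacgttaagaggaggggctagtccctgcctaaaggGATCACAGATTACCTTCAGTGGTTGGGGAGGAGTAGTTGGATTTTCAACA
Rian, chr12:109603695-109603994, plus strand: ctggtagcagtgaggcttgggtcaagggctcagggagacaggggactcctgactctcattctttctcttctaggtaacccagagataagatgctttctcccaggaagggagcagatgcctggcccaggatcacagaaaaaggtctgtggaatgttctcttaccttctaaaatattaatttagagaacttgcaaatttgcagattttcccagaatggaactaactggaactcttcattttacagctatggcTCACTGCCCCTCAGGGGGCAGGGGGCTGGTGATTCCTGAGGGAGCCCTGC
Apela, chr8:65037287-65037586, minus strand: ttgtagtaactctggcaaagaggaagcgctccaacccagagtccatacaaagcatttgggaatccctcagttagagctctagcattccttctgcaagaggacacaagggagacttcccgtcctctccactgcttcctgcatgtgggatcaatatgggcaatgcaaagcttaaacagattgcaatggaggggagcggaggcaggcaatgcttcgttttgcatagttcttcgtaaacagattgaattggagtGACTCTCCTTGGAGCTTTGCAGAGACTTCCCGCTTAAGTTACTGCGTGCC
Dancr, chr5:74092810-74093109, plus strand: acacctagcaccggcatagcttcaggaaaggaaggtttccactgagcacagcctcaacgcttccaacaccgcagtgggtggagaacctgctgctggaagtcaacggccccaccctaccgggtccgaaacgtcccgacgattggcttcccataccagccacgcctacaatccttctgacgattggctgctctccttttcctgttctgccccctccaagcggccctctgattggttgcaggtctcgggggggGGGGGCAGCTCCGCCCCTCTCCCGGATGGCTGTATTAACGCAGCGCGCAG
The CG dinucleotide, which reads the same on both strands, occurred 2 times in the Eprn window, 0 times in Rian, 7 times in Apela and 18 times in Dancr, against a median of 7 over the 32851 RefSeq start windows of this length. Eprn marks the member with the highest WT enrichment below, Dancr a member with little, Rian a pair of members that differ, and Apela a member whose level rose in KO.

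The members were modest in level and had long exons. Their median WT level was 2.13 RPKM, against 6.66 RPKM in the 11193 other genes at 1 RPKM or more. They had a median of 4 exons, against 8 in the other genes, and the longest exon held a median of 33 windows, against 24. The longest exon thus held a median of 70.6% of a member's windows, against 47.2% in other genes. The highest member was linc1425.3, which overlaps Gas5, a snoRNA host gene, at 86.2 RPKM in WT.

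Across the series, relative IP depth differed more than input depth. With the first IP set to 1, the KO IPs had depths of 0.0644 and 0.0606 and the WT IPs 0.159 and 0.0712. The inputs, relative to the first input, had 0.516 and 0.284 in KO and 0.438 and 0.457 in WT. Coverage in these files is the authors' scaled value, and absolute read numbers are unknown, so no counting interval is given. The share of member windows with an IP coverage of 0 was 60.4% and 50.5% in KO, 26.6% and 46.0% in WT, and 6.54% in the first IP. Mettl3 itself had an input coverage of 3.14 and 3.38 in KO, against 4.79 and 4.67 in WT (limma, log2 difference -0.43, SE 0.07, adjusted p = 0.00259). All 12 ES cell marker genes had a coverage of at least 1 in each of the 4 KO and WT inputs. Of 12 markers of early differentiated lineages, 1 reached that level, as did 1 of 8 fibroblast markers, of which 4 stayed below 0.1 in every input. By the same test 2 of the 12 ES cell markers were higher in KO (Utf1 and Dppa3), where 13% of all genes were. Lower in KO were 6 (Nanog, Klf4, Dppa5a, Tdgf1, Fgf4 and Tfcp2l1), where 13.6% of all genes were.

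Enrichment of a whole transcript was taken as log2 of (mean IP coverage + 1) over (mean input coverage + 1), set relative to the library's median over the 11048 genes with a WT input coverage of at least 1. Of the 113 members, 110 could be measured this way. Most lay above the median gene. Their median was 0.59 and 0.71 in the KO pairs, 0.62 and 0.63 in the WT pairs and 0.47 in the first pair. By library, 77 and 73 members were above 0 in KO, 73 and 71 in WT, and 74 in the first pair, where 50% of all genes are by construction. In all 5 pairs 59 members (53.6%) were above the library median, against 38.1% of all genes, and 18 (16.4%) were below it, against 36.3% of all genes. No test was made of these shares, because the members were chosen with earlier results known.

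By WT mean, the most enriched transcript was linc1281.3, which shares 12 of its 31 windows with Eprn (ephemeron), a lncRNA linked in mouse ES cells to the exit from the naive state. Its enrichment was 3.45 and 3.29 in KO, against 3.12 and 3.23 in WT, and 2.44 in the first pair. Its IP coverage was 114 and 95.0 in KO, against 78.3 and 83.9 in WT, while its input coverage was below 10 in each of the 5 inputs. The enrichment of linc1281.3 was thus high in the KO pairs and in the WT pairs, and lowest in the first pair. In KO pair 1 linc1471.3 was higher, and in the first pair linc1336.3 was highest, at 2.64. The signal sat in 2 humps. In exon 1, window 6 had an IP coverage of 687 and 529 in KO, 482 and 553 in WT, and 261 in the first IP, over an input coverage of 13.6 and 13.6 in KO, 15.8 and 11.2 in WT, and 12.4 in the first input. In exon 2, window 4 had an IP coverage of 363 and 310 in KO, 192 and 202 in WT, and 41.0 in the first IP. The second hump was therefore weaker in the first pair than in the other 4.

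Next came linc1471.3, which shares windows with a name lacking a current symbol. It had an enrichment of 3.61 and 2.79 in KO, 2.98 and 3.06 in WT, and only 1.04 in the first pair. Members that share windows with Platr genes (pluripotency-associated transcripts) were also prominent. The shared windows were 7 of 55 in linc1413.3, 4 of 81 in linc1906.3 and 3 of 360 in linc1333.3. They were 19 of 92 in linc1423.3 and 8 of 103 in linc1509.3. These counts hold only windows with equal coverage values, so the full extent of each overlap is not known. The enrichment of linc1413.3 (Platr21) was 2.60 and 2.44 in KO, 2.35 and 2.86 in WT, and 2.14 in the first pair. That of linc1906.3 (Platr10) was 2.27 and 2.20 in KO, 2.54 and 2.43 in WT, and 1.86 in the first pair. The other 3 such members also lay above 0 in all 5 pairs, with WT means of 1.34 for linc1333.3 (Platr4), 1.44 for linc1423.3 (Platr22) and 1.65 for linc1509.3 (Platr14). Further members among the 8 highest were linc1644.3, linc1303.3, linc1439.3 and linc1246.3, with WT means of 2.37, 2.26, 2.19 and 2.08, against KO means of 2.42, 2.38, 2.08 and 2.02.

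**Figure D1:**
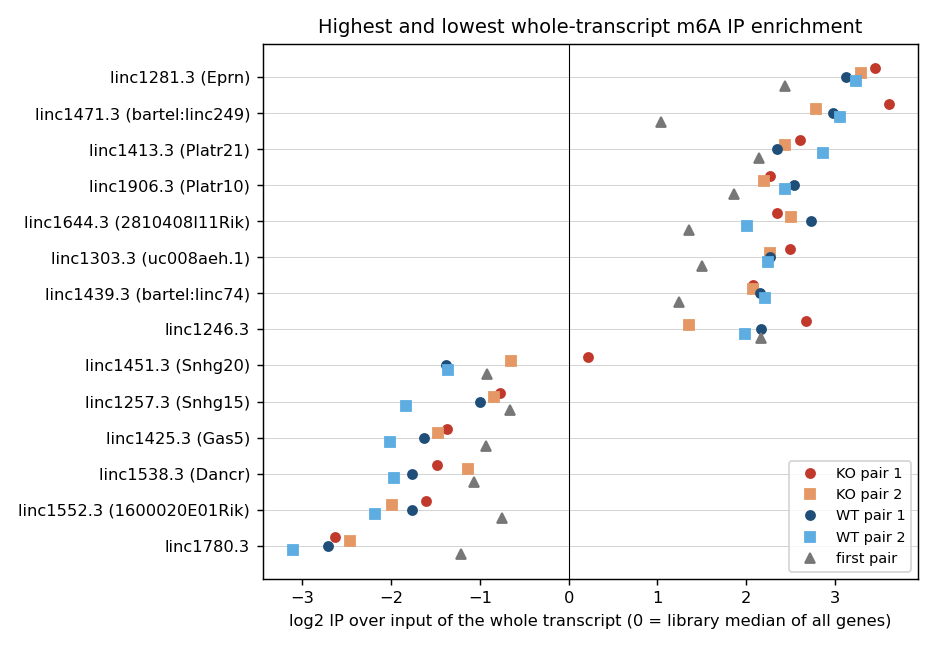
Whole-transcript log2 IP over input (horizontal axis; 0 is the library median of all genes) of the 8 highest and 6 lowest members by WT mean, leaving out linc1747.3, which overlaps linc1458, 1 point per IP and input pair, with the gene whose windows a member shares in brackets. The 8 upper members lie to the right of 0 in all 5 pairs. The KO points of linc1246.3, linc1471.3 and linc1451.3 are spread, and those of linc1451.3, at 0.22 and -0.65, lie to the right of its WT points.

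At the other end, with 1 name kept of those that overlap each other, 4 of the 6 members with the lowest WT means overlap snoRNA host genes. The lowest was linc1780.3, which shares no window with another name, at -2.63 and -2.46 in KO, -2.70 and -3.11 in WT, and -1.22 in the first pair. Next was linc1552.3, which shares windows with 1600020E01Rik, with a KO mean of -1.80, against a WT mean of -1.97. Members that overlap Dancr (linc1538.3), Gas5 (linc1425.3), Snhg15 (linc1257.3) and Snhg20 (linc1451.3), hosts of snoRNAs, had KO means of -1.31, -1.42, -0.81 and -0.21, against WT means of -1.87, -1.82, -1.41 and -1.37. The plot of the highest and lowest members shows these 4 to the left of 0 in all 5 pairs, save linc1451.3 in KO pair 1 at 0.22. Grouping all 9 members that overlap a Snhg gene, Gas5, Dancr or Rian, a group chosen after the values were seen, gave a median of -0.31 in KO, against -1.37 in WT. These medians fall on different members: the 9 members' own differences, KO minus WT, had a median of 0.14 and ran from -0.85 to 1.16. By WT mean 6 of the 9 lay below 0. The rest lay above it, linc1458 (Rian) at 1.32, linc1385.3 (Snhg14) at 0.93 and linc1290.3 (Snhg18) at 0.54. The other 101 members had a median of 0.68 in KO, against 0.68 in WT, and 31 of them lay below 0 by WT mean.

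Members that overlap Rian differed from each other. Rian is a maternally expressed imprinted lncRNA of the Dlk1-Dio3 domain that carries many snoRNAs. Both members that overlap it read the same RNA over 109 windows, yet linc1458 had an enrichment of 1.05 and 0.88 in KO, 1.35 and 1.29 in WT, and 1.92 in the first pair, while linc1747.3 had -1.69 and -1.75 in KO, -1.68 and -2.06 in WT, and -1.20 in the first pair. The difference lay in 41 windows that only linc1458 holds. In those the mean IP coverage was 181 and 180 in KO, 190 and 189 in WT, and 160 in the first IP. In the 109 windows held by both, it was 3.74 and 4.18 in KO, 2.998 and 2.08 in WT, and 2.51 in the first IP, over a mean input coverage of 13.7 and 15.1 in KO, 9.59 and 9.81 in WT, and 7.39 in the first input. Exon 25, the last in file order, with 21 windows, reached a mean IP coverage of 350 and 346 in KO, 370 and 367 in WT, and 307 in the first IP. The m6A antibody signal over linc1458 was thus concentrated in exon 25, and little of it lay in the stretch common to both names. None of the 9 windows of the exon 25 region were shared with Rian, so the signal there belongs to linc1458 as annotated in the files and was not traced to Rian.

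A limma fit over all 11048 genes set whole-transcript enrichment in KO against WT. It called 0 of 110 members, and 0% of all genes. At an unadjusted p under 0.05 there were 8 members, 6 higher and 2 lower in KO, against 13.2% of all genes. The median difference, KO minus WT, was 0.10 in members, against 0.04 in all genes, with a median standard error of 0.24 in members. The smallest adjusted p of a member was 0.329. Leaving out KO pair 2 called 8 of 110 members, 4 in each direction, against 5.08% of all genes. Across the 110 members, which are not independent replicates and share library depth, Pearson's r was 0.83 between the KO pairs and 0.95 between the WT pairs.

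Along the transcripts, the authors' winscore gives log2 of IP over input in a window after each is divided by its gene's median. Of the member windows, those at a winscore of 2 or more made up 19.4% and 18.5% in KO, 11.9% and 18.5% in WT, and 7.10% in the first pair. Among windows of other genes they made up 21.6% and 19.2% in KO, 13.1% and 19.2% in WT, and 7.04% in the first pair. In both sets the 3 IPs of lowest depth (both KO IPs and WT replicate 2) had the highest shares, and the first IP, the deepest, had the lowest. The part of depth in these shares was not tested.

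Regions were runs of 2 or more neighbouring windows that each scored at least 2 in the first IP, the deepest one, which belongs to neither KO nor WT. There were 120 regions in 65 of 113 members (57.5%), against 54.3% of all genes at 1 RPKM or more. Of the members 48 had none, 37 had 1, 18 had 2 and 10 had 3 or more, with 8 regions each in linc1468.3 and linc1333.3 (Platr4). A region spanned a median of 4 windows (range 2 to 18). Members with a region were longer, with a median of 83 windows and a longest exon of 58 windows, against 32 and 23 windows in members without one. The longest exon of its member held 83 of 120 regions (69.2%) and 66.6% of the windows of members. In other genes the longest exon held 74.5% of regions and 48.3% of windows. First or last exons in file order held 61.7% of member regions, against 74.7% of the regions of other genes. Those exons held 61.8% of the members' windows and 53.3% of the windows of other genes. Exons run in genomic order in the files, so the 5′ and 3′ ends could not be told apart.

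The highest region in the first IP was in exon 4 of linc1347.3, 7 windows long. Its mean winscore was 7.03 and 5.90 in KO, 5.37 and 6.08 in WT, and 6.07 in the first pair. The IP coverage there was 398 and 295 in KO, 354 and 354 in WT, and 935 in the first IP, over an input coverage below 15 in each of the 5 inputs. In exon 9 of linc1587.3, an exon of only 3 windows, the winscore was 3.55 and 4.58 in KO, 4.41 and 4.84 in WT, and 5.82 in the first pair. The whole of this short exon was enriched, with an IP coverage of 2038 and 2320 in KO, 1583 and 1682 in WT, and 2072 in the first IP, over an input coverage of 63.5 and 68.1 in KO, 56.8 and 61.3 in WT, and 51.9 in the first input. The start of exon 5 of linc1468.3, the longest exon of that member, followed, with 5.43 and 5.02 in KO, 4.16 and 3.88 in WT, and 4.44 in the first pair. For this region KO lay above WT in both replicates without passing the test (difference 1.20, SE 0.53, limma adjusted p = 0.597).

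**Figure D2:**
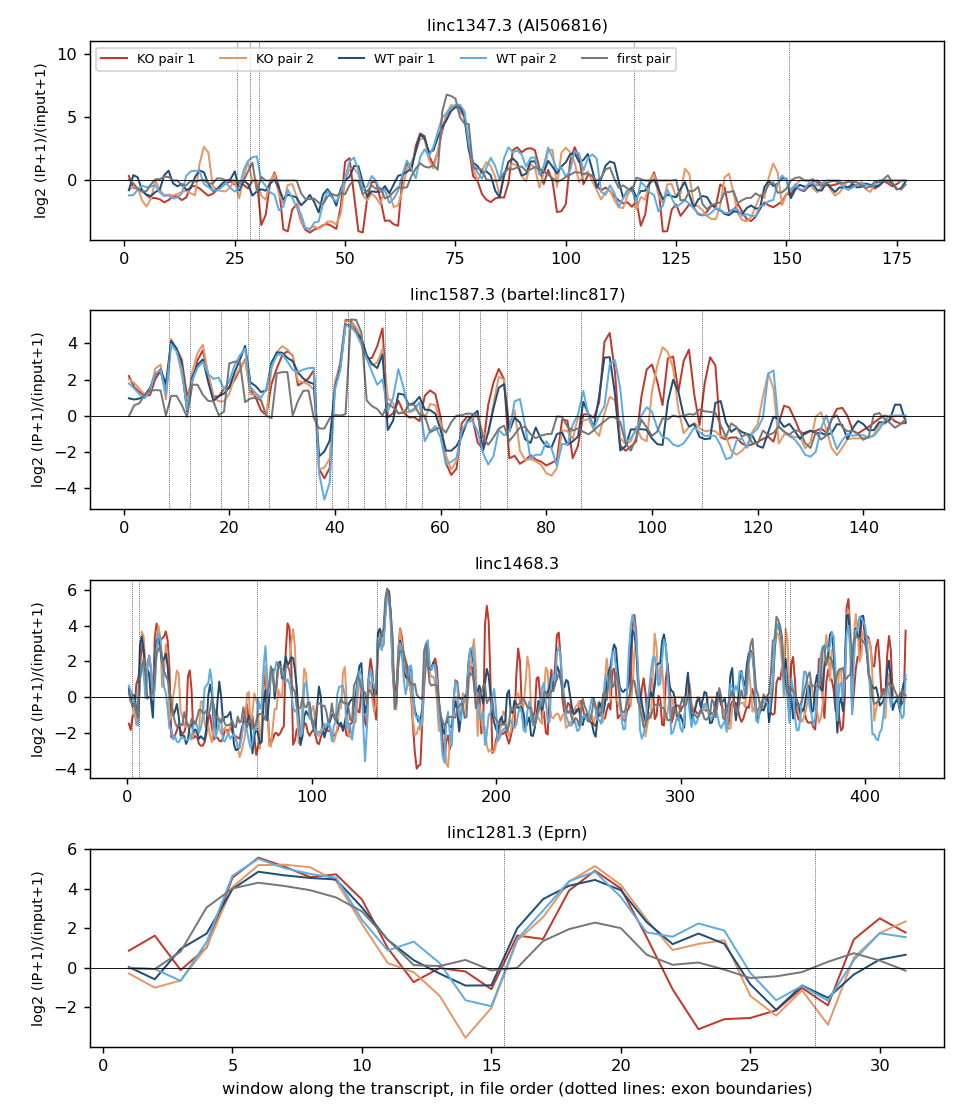
Log2 of (IP coverage + 1) over (input coverage + 1), not centred, along the windows of 4 members in file order, 1 line per IP and input pair; dotted lines are exon boundaries. The main peaks of linc1347.3, linc1587.3 and linc1468.3 and both humps of linc1281.3 occur at the same windows in the KO and WT pairs.

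Among the 10 highest regions, those of linc1293.3, linc1412.3, linc1316.3 and linc1317.3 stayed at or above the 2.78 that linc1317.3 had in KO pair 2. The region in exon 1 of linc1385.3 had 6.81 and 7.16 in KO, 5.69 and 6.33 in WT, and 4.04 in the first pair. This member shares 10 of its 72 windows with Snhg14, the paternally expressed imprinted antisense transcript of Ube3a. None of the 6 windows of this region were among them. The region in exon 25 of linc1458 (Rian) had 5.53 and 5.41 in KO, 4.87 and 6.22 in WT, and 4.16 in the first pair. That of linc1535.3 spread the most in WT, with 5.07 and 4.72 in KO, 3.40 and 5.07 in WT, and 4.23 in the first pair, over an input coverage below 2 in every pair.

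The regions were held in most other pairs. A mean winscore of at least 2 was kept by 82 and 91 of the 120 regions in the KO pairs, where 82.6% and 85.1% of the regions of all genes kept it. In the WT pairs 103 and 108 kept it, where the regions of all genes did so in 90.8% and 91.9% of cases. Both KO pairs held 69 regions (57.5%, against 74.9% of the regions of all genes) and both WT pairs held 96 (80%, against 87%). Of the 96 regions held in both WT pairs, 64 were held in both KO pairs (66.7%, against 82.1% of such regions of other genes). Of the 96, 0 fell below 1 in both KO pairs, against 58 of 8765 in other genes. The region in exon 1 of linc1303.3 came close, at 0.52 and 1.0001 in KO. Those of linc1262.3 in exon 1 and linc1346.3 in exon 2 were below 1 in both KO pairs. They are not among the 96, as WT pair 1 had 1.74 and 1.69. The median winscore over the 120 regions was 3.15 and 3.21 in KO, 3.05 and 3.38 in WT, and 2.75 in the first pair. In each of the 4 pairs the members' share was below that of all genes, a difference that was not tested, and members had lower levels and more windows at an IP coverage of 0. The part of level and depth in it was not tested.

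**Figure D3:**
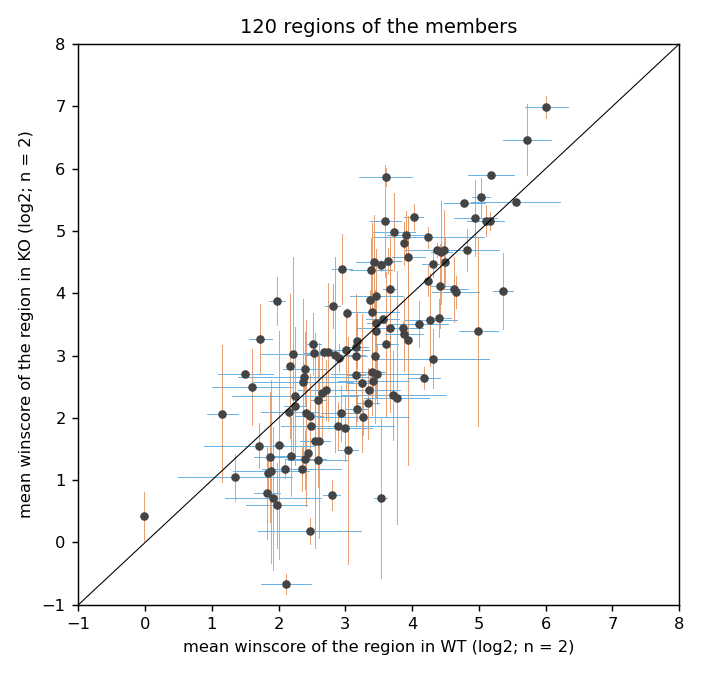
Mean winscore of each of the 120 regions in KO (vertical axis) against WT (horizontal axis), both log2 with n = 2; lines span the 2 replicates of KO (vertical) and of WT (horizontal), and the diagonal marks equal values. Points lie on both sides of the diagonal, 53 above (45.7% of the regions of all genes are) and 67 below, and the replicate lines of many regions cross it.

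With both replicates of KO and WT in the fit, no region of a member passed the test. On the winscore, limma over 10181 regions called 0 of 120 member regions, and 0% of all regions. An unadjusted p under 0.05 was reached by 11, against 8.27% of all regions. IP over input was centred on windows with a winscore under 1 in the first pair and a WT input coverage of at least 1. On that measure limma called 0 of 106 member regions, and 0% of all 9636 regions tested. There 9 reached an unadjusted p under 0.05, 8 of them lower in KO, against 10.5% of all regions. The median difference was -0.10 on the winscore, against -0.08 in all regions, and -0.14 on IP over input, against -0.15 in all regions. The standard error of a difference had a median of 0.66 on the winscore and 0.47 on IP over input. Without KO pair 2 the tests called 22 member regions on the winscore (8 higher and 14 lower in KO) and 18 on IP over input (2 higher and 16 lower), against 13% and 13.4% of all regions. Without KO pair 1 they called 5 and 3, against 3.71% and 4.66% of all regions. In those fits the lone KO pair is assumed to vary like the WT pairs. With both KO pairs in the fit, a single region could differ by several log2 units without passing, as the next values show.

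Of the regions with the smallest p, none of which passed, those of linc1346.3 and linc1262.3 had little IP coverage in KO. Others that were lower in KO had more. In exon 2 of linc1346.3 the IP coverage was 0 and 2.77 in KO, against 18.2 and 42.2 in WT, and 42.5 in the first IP, over an input coverage below 2 in every pair. The IP over input of this region differed by -3.31 (SE 0.73, adjusted p = 0.288). Without KO pair 2 the difference was -4.11 (adjusted p = 7.17e-11) and without KO pair 1 it was -2.50 (adjusted p = 0.000658). In exon 1 of linc1262.3 the IP coverage was 0 and 0.896 in KO, against 8.53 and 6.34 in WT, and 24.8 in the first IP. Its IP over input differed by -2.43 (SE 0.57, adjusted p = 0.291). In exon 3 of linc1493 the IP coverage was 1.64 and 15.7 in KO, against 72.0 and 60.7 in WT, and 40.9 in the first IP. The KO replicates of linc1493 were far apart there, and its IP over input differed by -2.66 (SE 0.95, adjusted p = 0.415). Without KO pair 2 the difference was -3.16 (adjusted p = 1.18e-06) for linc1262.3 and -4.26 (adjusted p = 1.47e-11) for linc1493. In exon 1 of linc1303.3 the IP coverage was 29.2 and 24.2 in KO, against 66.4 and 57.7 in WT, with a difference of -1.44 (SE 0.43, adjusted p = 0.37). On the other side, the region of linc1565.3 in exon 6 had a winscore of 5.72 and 6.003 in KO, against 4.002 and 3.20 in WT (difference 2.26, SE 0.56, adjusted p = 0.517). It passed without KO pair 1 (adjusted p = 0.0236) and without KO pair 2 (adjusted p = 0.02). These 5 regions were picked for a small p, which favours KO and WT winscores that do not overlap, as in each of them. The share of all regions without overlap was not counted, and the test across all regions passed none of the 5.

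Transcript level was compared on log2(mean input coverage + 1) with limma over the 11211 genes that had a coverage of at least 1 in at least 2 of the KO and WT inputs. The filter kept 106 of 113 members. The members were chosen on their WT level, which is also the WT side of this comparison. Of the 106 tested, 5 passed the coverage filter only through the WT inputs, and 4 of these were among the falls. In bulk samples, fewer cells that express a transcript and less of it per cell cannot be told apart. In KO, 11 members were higher (13% of all genes were) and 17 were lower (13.6% of all genes were). Together these 28 stand against 26.6% of all genes called in either direction. The median difference was -0.03 in members, against -0.0048 in all genes. The KO and WT inputs did not overlap for 62 members (58.5%), against 65.7% of all genes. These shares lie near the background of all genes. Of the 28 changes, 21 were below 1.5-fold on this scale, 2 were rises above 1 on the log2 scale and 1 was a fall beyond -1.

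The largest rise was that of linc1385.3 (Snhg14), with an input coverage of 57.6 and 63.6 in KO, against 17.99 and 19.99 in WT, and 6.48 in the first input. It was 3.19-fold higher in KO (log2 difference 1.62, SE 0.08, limma adjusted p = 3.2e-06). Its IP coverage was 127 and 128 in KO, against 46.8 and 43.1 in WT, so that its enrichment averaged 0.97 in KO and 0.93 in WT. Another member that overlaps an imprinted gene is linc1458, which shares 43 of its 150 windows with Rian. It had 23.5 and 25.4 in KO, against 16.8 and 17.4 in WT, and 11.7 in the first input (log2 difference 0.49, SE 0.07, adjusted p = 0.000827). Its 41 windows outside linc1747.3 had 49.5 and 52.9 in KO, against 35.9 and 37.5 in WT. The overlapping name linc1747.3 rose by 0.52 and rests largely on the same reads.

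The next largest rise was that of linc1393.3, which shares 8 of its 41 windows with Apela, the gene of a small secreted peptide ligand of the apelin receptor. It had 12.05 and 15.1 in KO, against 4.52 and 5.30 in WT, and 7.79 in the first input (2.76-fold, log2 difference 1.30, SE 0.10, adjusted p = 4.19e-05). This member therefore overlaps a protein-coding gene in spite of its name. Rises followed in linc1406.3 (0.75), linc1328.3 (0.60), linc1281.3 (Eprn, 0.34), linc1566.3 (0.33), linc1290.3 (Snhg18, 0.31 with an adjusted p of 0.0288), linc1409.3 (0.27) and linc1906.3 (Platr10, 0.24). Of these, linc1409.3 overlaps Firre, an X-linked lncRNA involved in nuclear organisation, and had 6.51 and 6.73 in KO, against 5.62 and 5.003 in WT. Rises of this size depended on single libraries. Without WT replicate 2 the adjusted p was 0.207 for linc1409.3 and 0.0939 for linc1290.3. Without WT replicate 1 it was 0.266 for linc1906.3, 0.0977 for linc1290.3 and 0.0886 for linc1566.3. Without KO replicate 2 it was 0.103 for linc1290.3, 0.0619 for linc1409.3 and 0.0536 for linc1906.3, and without KO replicate 1 it was 0.0647 for linc1906.3.

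Of the 12 largest falls, 11 were in members with a WT input coverage below 5. The largest was that of linc1246.3, with 0.889 and 1.02 in KO, against 2.97 and 3.94 in WT, and 3.14 in the first input (log2 difference -1.18, SE 0.11, adjusted p = 6.93e-05). Its enrichment averaged 2.02 in KO, against 2.08 in WT. Then came linc1400.3, with 1.95 and 1.87 in KO, against 4.14 and 4.63 in WT (log2 difference -0.89, SE 0.08, adjusted p = 6.61e-05). The coverage of linc1296.3 was 1.05 and 1.47 in KO, against 2.59 and 3.13 in WT (log2 difference -0.78, SE 0.11, adjusted p = 0.000911). Further falls were linc1346.3 (-0.52), linc1463.3 (-0.50), linc1356.3 (-0.45), linc1245.3 (-0.38), linc1251.3 (-0.38), linc1267.3 (-0.38), linc1470.3 (-0.37), linc1493 (-0.35) and linc1537.3 (-0.34). The smallest of these also depended on single libraries. Without KO replicate 1 the adjusted p was 0.0579 for linc1267.3 and 0.0744 for linc1537.3, and without KO replicate 2 it was 0.0773 for linc1251.3, 0.103 for linc1470.3 and 0.0527 for linc1493. Without WT replicate 1 it was 0.065 for linc1251.3, 0.0779 for linc1267.3 and 0.122 for linc1470.3, and without WT replicate 2 it was 0.0883 for linc1245.3, 0.142 for linc1493 and 0.182 for linc1537.3. The KO coverage of linc1356.3, linc1245.3, linc1251.3 and linc1267.3 was below 1 in both replicates, so they passed the filter only through WT. At this coverage the added 1 compresses differences, so that linc1356.3, with 0.540 and 0.847 in KO, against 1.34 and 1.25 in WT, had a ratio of means of 0.534.

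**Figure D4:**
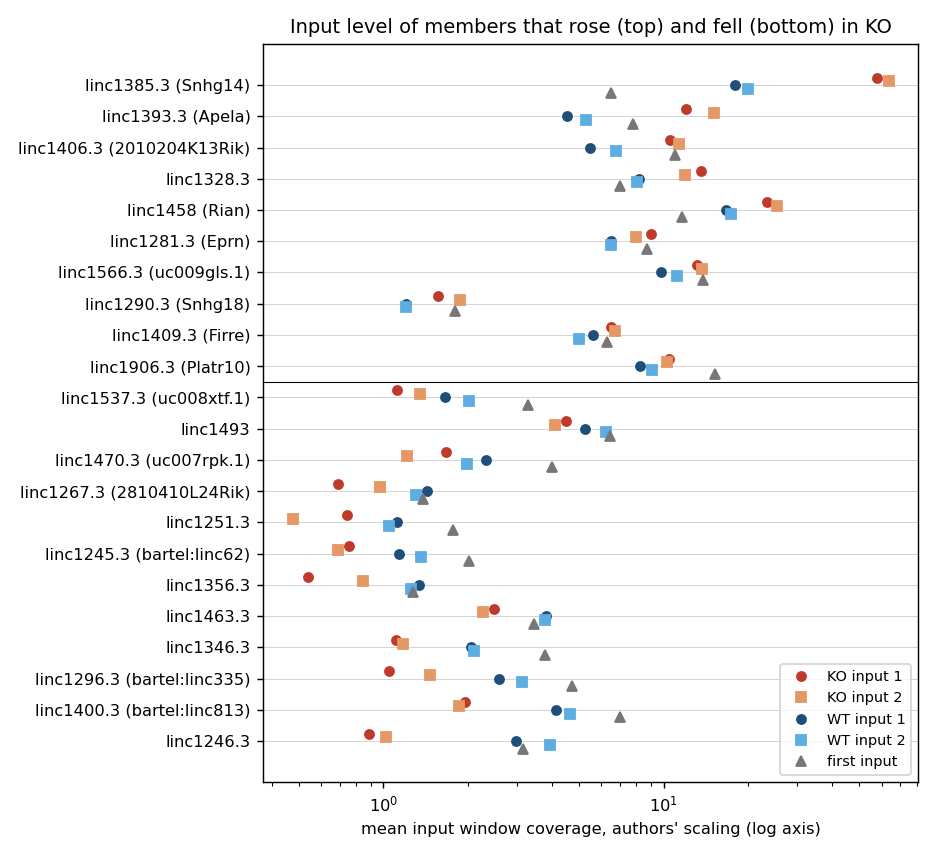
Mean input window coverage (log axis) of the 10 members that rose (above the line) and the 12 with the largest falls (below the line) in KO, 1 point per input, with the gene whose windows a member shares in brackets. The KO points lie to the right of the WT points above the line and to the left below it, and the first input often lies outside both.

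Members with Platr overlaps did not move together. Beside the rise of linc1906.3 (Platr10), linc1333.3 (Platr4) fell by 0.25 on the log2 scale (SE 0.08, adjusted p = 0.0447), with 1.88 and 1.62 in KO, against 2.29 and 2.27 in WT. The differences of linc1509.3 (Platr14), linc1413.3 (Platr21) and linc1423.3 (Platr22) were 0.02, 0.04 and -0.12 and did not pass the test. Among overlaps with snoRNA hosts, linc1425.3 (Gas5) had 60.4 and 69.7 in KO, against 64.2 and 64.6 in WT, and also did not pass (log2 difference 0.01, adjusted p = 0.93). Members with a region rose in 6 and fell in 10 of 60 cases, and members without one rose in 5 and fell in 7 of 46. In percent this was 10% and 16.7% with a region, against 10.9% and 15.2% without. Other genes with a region rose in 10.97% and fell in 13.3% of cases, and those without one in 13.9% and 14.3%.

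The deposited RPKM table does not give these levels for KO. Its columns labelled KO input correlated across the 12256 genes compared with the KO IP coverage at r = 0.96 and 0.97, and with the KO input coverage at 0.70 and 0.72. A fit on that table therefore called 71 of 111 members, 56 of them higher in KO, against 65% of all genes in either direction. Of the 28 members called on input coverage, 9 were also called there in the opposite direction and 9 in the same direction. For linc1281.3 (Eprn), the RPKM columns labelled KO input read 120 and 124, against 6.93 and 6.96 in the WT columns.

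The first input had no replicate and was set beside the WT inputs without a test. The median log2 ratio of its coverage to the WT mean was 0.20 in members, against 0.48 in the other genes. It was above 1 for 4 of 113 members (3.54%) and below -1 for 3 (2.65%), against 18.3% and 8.71% of the other genes. The level of linc1385.3 (Snhg14) was lower in the first input than in the WT inputs, and that of linc1906.3 (Platr10) higher, at 15.2, against 8.26 and 9.08 in WT.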

How the data were processed

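Reads were aligned with TopHat 1.1.3 and the build mm9 is named, per the submitters' processing notes. Libraries kept the strand, per the labels' protocols; whether coverage was counted by strand, read filters and the gene models are not stated in the labels, so antisense and overlapping genes are uncertain. Per the file headers, the deposited window tables hold scaled coverage (a signal) and a log2 score per window, winscore. Recomputing this deposited log2 score from coverage gave the same values to within 5e-14. The authors' RPKM table gives 1 column per input, per the file headers, and its denominator is not stated. The inputs in the window tables carry no replicate number of their own and were taken as the input of the IP they stand beside. Replicates numbered alike were not paired: the correlation of their deviations was between -0.0271 and 0.0273 in 4 measures.

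Members, lists and tests were chosen with earlier results of these data known. limma 3.58.1 in R 4.3.3 (lmFit and eBayes, with trend for level and winscore, Benjamini-Hochberg adjustment over all features, threshold 0.05, two-sided) compared 2 KO with 2 WT samples on the log2 scale with a pseudocount of 1, and was tested on simulated data. An exact permutation test of 2 against 2 cannot go below p = 0.333. Named members were the largest changes among those past the level test whose KO and WT inputs do not overlap (up to 12 each way, 1 name per group that shares windows), and, by the same rule of 1 name per group, the 8 highest and 6 lowest in WT enrichment, the 8 highest levels, the 10 highest regions, and, where none passed, the smallest p each way. The overlaps with snoRNA hosts, and the comparison of linc1458 with linc1747.3, were chosen after their values were seen. Alternatives were another pseudocount, filter, scaling, region threshold, the RPKM table, a replicate block, and leaving out each replicate. RefSeq GRCm38.p6 tables gave symbols and sequences. Genome positions of the lincRNA windows were not used here.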

Additional observations from a re-analysis of the deposited data

How the results depend on the processing

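Of the level results, 28 members passed with a replicate block, against 24.4% of all genes, and 26 of the 28 were the same. The block called 1 region on the winscore (linc1493 exon 3, adjusted p = 0.045) and 1 on IP over input (linc1346.3 exon 2, adjusted p = 0.00806). Both were lower in KO, and the block called 0.638% and 0.944% of all regions. Leaving out 1 replicate gave 19 to 35 members for level, 0 to 8 for whole-transcript IP over input, 0 to 22 regions on the winscore and 0 to 18 on IP over input. The highest of these came without KO replicate 1 for level and without KO replicate 2 for the others. The lone sample is assumed to vary like the other group. For level, the share of all genes called also changed with the replicate left out, so the range of level counts alone does not describe the members. The RPKM table gave 71 of 111 members (65.0% of all genes), no filter on low coverage 10 of 113 (3.49%), and a minimum of 5 gave 15 of 28 (30.6%). On the RPKM table the differences of linc1409.3 (-0.53), linc1246.3 (1.00), linc1400.3 (1.06), linc1346.3 (0.56), linc1251.3 (0.66), linc1470.3 (1.63), linc1493 (0.81) and linc1537.3 (0.55) changed sign; that table's KO columns follow IP coverage. Under median-ratio scaling and both other pseudocounts, the 22 named members kept direction and call. Quantile normalization ended the call of 3 of them and no filter that of 13. For enrichment, the remaining scalings, filters and region thresholds left the members' calls at 0. A region threshold of 3 left 39 members with a region, and an RPKM minimum of 5 left 16 of 28. The shares of all genes at these settings are not given here, so these counts do not set the members apart from other genes. The share of member windows at a winscore of at least 1 was 32.3% and 33.0% in KO, 25.9% and 32.9% in WT and 15.7% in the first pair; at 3 it was 11.5% and 9.52%, 5.75% and 8.79%, and 3.09%. IP depth and an added 1 limit what low transcripts can show.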
